A study of Mus musculus with 2 samples.

Results

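Rod bipolar cells were examined in 2 droplet-based single-cell RNA libraries of the mouse ciliary epithelium, the epithelial fold between retina and iris that secretes aqueous humour. Members were chosen by the measured UMIs (unique molecular identifiers, 1 per captured transcript) of 5 genes: at least 2 of Prkca, at least 4 of Pcp2, Trpm1 and Grm6 together, and at most 1 of Scgn. Only barcodes with 500 or more detected genes and no more than 30% of UMIs from mitochondrial genes were retained. The rule found 471 members among 9331 retained barcodes, 111 of 3865 in library 1 and 360 of 5466 in library 2. The mice of both libraries were of the C57BL/6 strain and 35 days old, wild type by the series' design text, with no treatment named, and all tissue of a library was pooled before digestion with collagenase. Library 1 was made from 3 sets of eyes, and the labels of library 2 give 3 sets in one place and 4 in another. The design has 1 group of 2 libraries and no treated arm, so the comparisons are between cell classes within the libraries.

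Rod bipolar cells are the second-order neurons of the rod pathway. They receive glutamate from rods through the metabotropic receptor mGluR6 (Grm6), whose G protein Go keeps the cation channel TRPM1 closed in darkness, so that the cell depolarises when light stops the release of glutamate. Their axon ends in the inner plexiform layer, where it drives AII and A17 amacrine cells at ribbon synapses and receives GABA back through GABA-A and GABA-C receptors, and protein kinase C alpha (Prkca) is the classical label of the cell type. These are neurons of the retina and not of the ciliary epithelium, which the tissue label names.

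The retained barcodes had a median of 4128 UMIs in library 1 and 2968 in library 2, and members had 3257 and 5365. The 2 libraries shared 8 retained barcode sequences, none of them a member. Other retinal classes were also gated on small sets of markers: cone bipolar cells (29 and 69 cells in library 1 and 2), rods (305 and 887), cones (61 and 121), GABAergic amacrine cells (54 and 83), glycinergic amacrine cells (24 and 59) and Müller glia (64 and 90). Each of these gates set an upper limit on Prkca and on some genes of other cells, whereas the rule limits only Scgn. A barcode that passed 2 gates was left out of both classes, and no member was lost in this way. In library 2, 887 of 1011 rods, 83 of 112 GABAergic amacrine cells and all 360 members were kept. Barcodes with markers of several cell types were thus removed less from members, and the part of this in the comparisons was not tested. Genes used in any gate were left out of all tests. Since every class was gated on transcripts of the same cells, genes that accompany a gate gene were selected with it.

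Not all members carried the profile that the label names. Trpm1 is also transcribed in melanocytes and pigmented epithelia, and 12 of 111 members in library 1 and 37 of 360 in library 2 held more than 10 UMIs of the melanosome genes Dct, Pmel, Mlana, Tyrp1 and Tyr, a list chosen after the values were seen. In these pigmented members the median was 19.5 and 12 UMIs for Trpm1, but 0 and 1 for Pcp2 and 0 and 1 for Gng13, a G protein subunit of rod bipolar cells that the rule does not use. In the 422 other members the medians of Gng13 were 29 and 37 UMIs, and 63 of 99 in library 1 and 268 of 323 in library 2 had at least 10. Some of the remaining ones were large: the member with most UMIs among them, 67202 in library 2, held 7 Gng13 UMIs, and another of 39846 UMIs held 0 with 7.67% of its UMIs from rod transcripts. Such cells weigh heavily in summed levels and were not removed with the pigmented ones. The pigmented members were large, with a median of 16469.5 and 18645 UMIs against 3031 and 5032 in the others, and they supplied 46.4% and 25.1% of all UMIs of the class. Of the pigmented members, 10 in library 1 and 16 in library 2 had no Pcp2 UMI at all, while 1 and 12 had at least 10 Gng13 UMIs. The main results below are therefore given for all 471 members and for the 422 left when cells with more than 10 pigment UMIs were removed from every class.

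**Figure D1:**
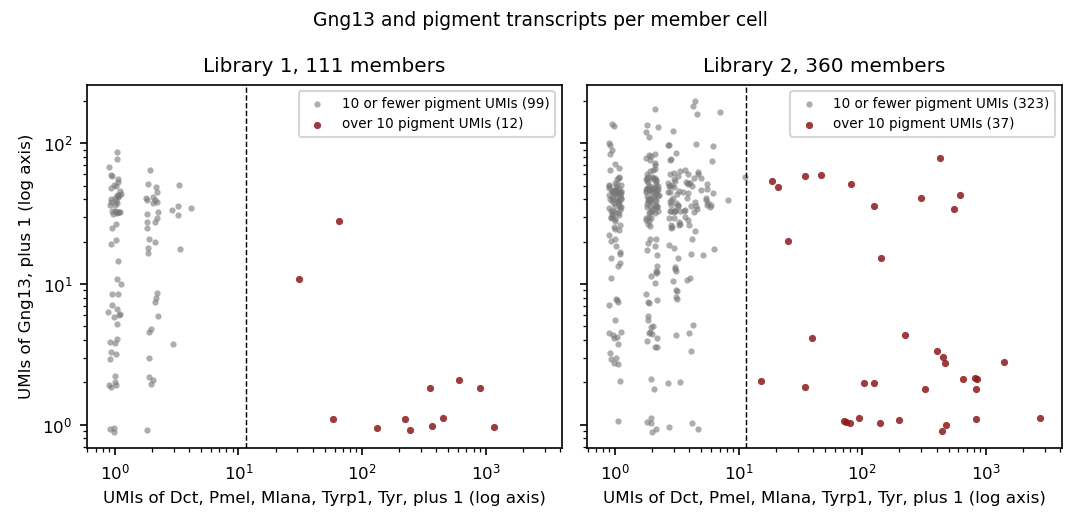
Each point is 1 member, with its UMIs of 5 pigment genes plus 1 on the horizontal log axis and its UMIs of Gng13 plus 1 on the vertical log axis, jittered slightly, for library 1 (left) and library 2 (right). The 12 and 37 members right of the dashed line have more than 10 pigment UMIs, and most of them lie low for Gng13.

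The genes of the rule describe how members were chosen and were not tested. Prkca (GRCm38 chr11:107933387-108343928) had a median of 6 UMIs per member in library 1 and 7 in library 2, with a highest value of 23 and 43. Pcp2, a regulator of Go signalling, had medians of 28 and 43 UMIs, and 10 and 23 members had none. Trpm1 had medians of 7 and 8 UMIs. Grm6 had medians of 2 and 2 UMIs, and 24 and 53 members had none. At the edge of the rule, 22 and 52 members had exactly 2 UMIs of Prkca, while 89 and 115 barcodes met the other conditions with exactly 1 and stayed outside. A further 13 and 118 barcodes met the other conditions but had 2 or more UMIs of Scgn, secretagogin, a calcium sensor of cone bipolar cells.

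Members made up 2.87% of retained barcodes in library 1 (exact Clopper-Pearson 95% interval 2.37% to 3.45%) and 6.59% in library 2 (5.94% to 7.28%). These intervals cover counting error only, and with 1 sample of each pool no test was made between the libraries. Since the rule reads raw UMIs, the share was also taken after thinning every cell to 2000 UMIs. It was then 63 of 2911 cells (2.16%) in library 1 and 253 of 3300 (7.67%) in library 2, against 2.82% and 10.0% of the same cells without thinning. Thinning left out 954 and 2166 shallower retained cells. Library 2 held the higher share of members in each form. Fewer cells of a type in the dissected tissue and fewer of them captured cannot be told apart here.

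Outside the rule, genes of the mGluR6 cascade were found in members and in cone bipolar cells. Levels are given as CPM, the UMIs of a gene per 1000000 UMIs summed over the cells of a class in a library. Gng13 (GRCm38 chr17:25717171-25719406), the gamma subunit of the Go complex in ON bipolar cells, reached 3739.8 and 3827 CPM in library 1 and library 2 over all members, and 6865 and 4895 without pigmented cells. Cone bipolar cells had 6538 and 4541, rods 22.4 and 178 and GABAergic amacrine cells 21.2 and 86.8. The highest value in any other gated retinal class was 271 CPM, in Müller glia of library 2. After thinning, a Gng13 UMI was seen in 87.8% and 87.9% of members with at least 2000 UMIs, against 1.22% and 9.94% of fibroblasts, which should lack it. The unthinned shares were 90.1% and 94.7% of members and 3.75% and 28.2% of fibroblasts, with median depths of 3257 and 5365 UMIs in members and 5974 and 6002.5 in fibroblasts.

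Other genes of the cascade were also read in both bipolar classes. Gnao1, the alpha subunit of Go, stood at 449 and 458 CPM in all members, 409.8 and 295 in cone bipolar cells and 29.8 and 83.5 in rods. Gnb3, the beta subunit shared by ON bipolar cells and cones, stood at 989.9 and 988, against 2088 and 1163 in cone bipolar cells. Gpr179, the orphan receptor that anchors the regulators of G protein signalling at the dendritic tips, reached 242 and 235 in all members and 436 and 297 without pigmented cells, and 166 and 193 in cone bipolar cells. Rgs11, one of those regulators, was at 169 and 114 in members and 205 and 253 in cone bipolar cells. Nyx, the scaffold nyctalopin, was sparse at 4.49 and 15.5 CPM in members, and Lrit3, which acts from the photoreceptor side, was at 1.50 and 2.05.

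**Figure D2:**
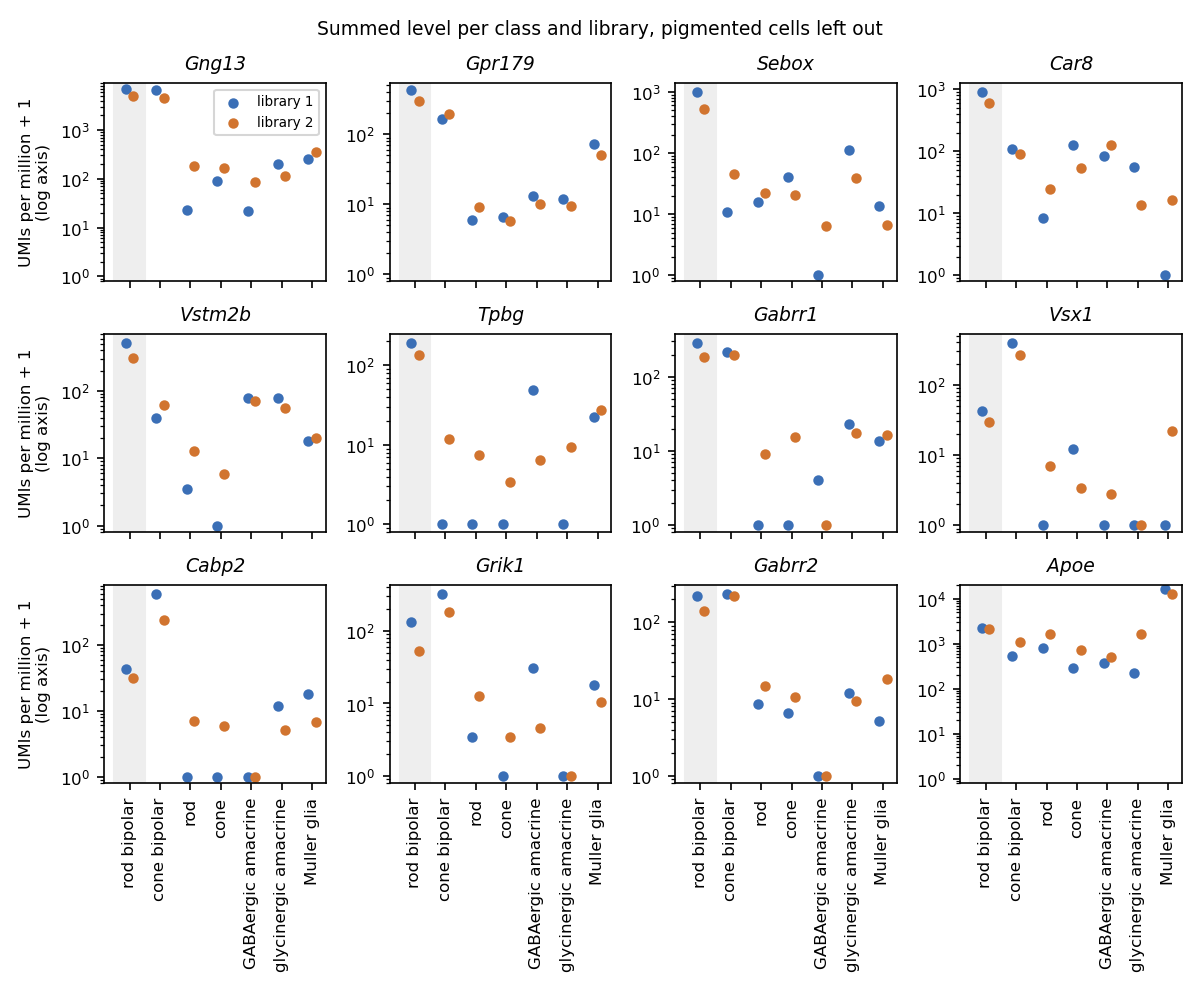
Summed CPM plus 1 (log axis) of 12 genes in 7 retinal classes, 1 point per library, with pigmented cells left out and the rod bipolar column shaded. Gng13, Gpr179 and Gabrr1 are high in both bipolar classes, Sebox, Vstm2b and Tpbg stand highest in rod bipolar cells, and Vsx1, Cabp2 and Grik1 stand highest in cone bipolar cells.

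Promoter sequences are shown for Trpm1, Cabp5 and Gabrr2, since these 3 genes of the bipolar profile have in the 250 bases before a start the letters TAATCC, or GGATTA on the other strand, the core that Otx2 and the related factor Crx recognise. The windows are from RefSeq (GRCm38.p6, plus strand, the transcript start following the last base), with matches in capitals. Trpm1 has a second start window at chr7:64185209-64185458, which does not hold these letters and is not shown. The windows printed are Trpm1 at chr7:64153585-64153834, Cabp5 at chr7:13397905-13398154 and Gabrr2 at chr4:33062862-33063111.
Trpm1: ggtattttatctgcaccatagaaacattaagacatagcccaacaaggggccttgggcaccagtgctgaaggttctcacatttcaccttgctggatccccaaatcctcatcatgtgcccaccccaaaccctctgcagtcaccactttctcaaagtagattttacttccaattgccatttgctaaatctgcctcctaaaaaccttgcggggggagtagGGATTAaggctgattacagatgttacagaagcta
Cabp5: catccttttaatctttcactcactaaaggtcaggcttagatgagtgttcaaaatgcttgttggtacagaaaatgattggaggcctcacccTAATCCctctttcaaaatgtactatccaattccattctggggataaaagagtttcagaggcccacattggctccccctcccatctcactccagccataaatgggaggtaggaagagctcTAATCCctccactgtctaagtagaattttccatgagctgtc
Gabrr2: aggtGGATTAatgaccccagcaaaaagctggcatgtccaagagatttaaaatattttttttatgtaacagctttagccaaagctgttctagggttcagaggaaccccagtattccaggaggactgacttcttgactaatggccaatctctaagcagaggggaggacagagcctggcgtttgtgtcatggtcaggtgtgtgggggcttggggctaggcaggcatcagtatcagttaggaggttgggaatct
Such a match is common by itself, with 6.25% of all 32851 promoter windows holding at least 1 on either strand. Of the 23 windows matched for 14 of 18 rod bipolar marker genes outside the rule, 4 held it, in Cabp5, Cacna1s, Isl1 and Otx2. Of 22 windows for 14 of 17 genes of the mGluR6 cascade, 3 held it, in Gnb5, Gpsm1 and Trpm1. These shares were 17.4% and 13.6%, against 9.38% of cone bipolar marker windows, 9.52% of GABA and glycine receptor windows and 50% (4 of 8) of rod transcript windows, the highest of the 5 lists. The windows of Grm6 and Gng13 did not have these letters, and a match is a description of the sequence and not a site. Otx2 itself was at 230.3 and 234 CPM in members and Crx at 71.8 and 272.

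Levels were compared with edgeR's quasi-likelihood test on UMIs summed per class and library, over all 7 retinal classes in 1 fit with library as a block. A gene was called at an adjusted p (Benjamini-Hochberg over all tested genes) under 0.05 and a change of 1 or more on the log2 scale, up or down. None of the 9 tested genes of the mGluR6 cascade was called against cone bipolar cells, with or without pigmented cells, where 1.47% of the 9271 tested genes were called in either direction over all members and 0.576% of 8675 without pigmented cells. The log2 fold change of Gng13 was -0.46 ± 0.57 (SE) with all members and 0.20 ± 0.59 without pigmented cells, and that of Gpr179 was 0.48 ± 0.24 and 1.02 ± 0.26. On simulated counts of this comparison 6 of 100 genes changed 2-fold were recovered, so most differences of that size would not be called. A 2-fold change lies on the threshold of 1 on the log2 scale, so this count does not measure the power of the test alone. Replication rested on 2 pooled libraries, and the p-values measure the spread between these pools over the 7 classes, not between animals. The cone bipolar class, with 29 cells in library 1, mixes several types.

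Genes outside the rule did separate rod from cone bipolar cells. Over all members, 86 genes (0.928% of those tested) were higher in rod bipolar cells and 50 (0.539%) were lower. Without pigmented cells, 23 (0.265%) were higher and 27 (0.311%) lower, and 16 of the 23 and 23 of the 27 were also called over all members. Of 17 tested marker genes of rod bipolar cells that the rule does not read, 4 rose over all members, among them Vstm2b, Sebox and Ablim1, and none fell. Of 18 tested without pigmented cells, 6 rose, with Car8 and Tpbg added, and none fell.

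Sebox (GRCm38 chr11:78503447-78505081), a homeobox transcription factor, was read in most members. It stood at 546 and 415 CPM in all members and 9.76 and 44.1 in cone bipolar cells, with both member values above both cone bipolar values. The log2 fold change was 3.80 ± 0.49 (SE; edgeR, adjusted p = 0.00863), and 4.35 ± 0.50 without pigmented cells. The gene was called under all 13 alternatives of the fit, with adjusted p-values of 9.55e-19 to 0.0227. A Sebox UMI was seen in 74.4% and 63.3% of members thinned to 2000 UMIs and in 0.102% and 0.552% of fibroblasts, and unthinned in 77.5% and 77.5% and 0.288% and 2.75%.

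Vstm2b, an immunoglobulin-domain membrane protein, stood at 283 and 240.3 CPM in members and 39.0 and 60.6 in cone bipolar cells. Its log2 fold change was 2.36 ± 0.39 (edgeR, adjusted p = 0.0184) and 2.92 ± 0.41 without pigmented cells. Ablim1, an actin-binding LIM protein, differed by 2.31 ± 0.31 and 2.75 ± 0.33. Sebox, Vstm2b and Ablim1 were each higher in members in both libraries.

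Car8 and Tpbg were not called over all members and were called without pigmented cells, and each was called in 6 of 13 alternatives. Car8, a carbonic anhydrase-related protein that lacks the enzyme's activity, was at 496 and 465 CPM in all members and 107 and 88.2 in cone bipolar cells, with a log2 fold change of 2.40 ± 0.63 (edgeR, adjusted p = 0.0808). Without pigmented cells it was 3.03 ± 0.50, and adjusted p ranged over 3.61e-10 to 0.17 across the alternatives. Tpbg, a membrane glycoprotein that protein kinase C alpha phosphorylates in rod bipolar cells, was at 114 and 109 in members and 0 and 11.0 in cone bipolar cells. It differed by 3.74 ± 0.89 (edgeR, adjusted p = 0.059) and by 4.18 ± 0.82 without pigmented cells, with adjusted p of 5.55e-08 to 0.116 over the alternatives.

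Other markers of the profile were not called between the 2 bipolar classes. Isl1, a homeobox factor of bipolar cells, had a log2 fold change of -0.06 ± 0.56 with all members. Otx2, the homeobox factor that bipolar cells share with photoreceptors, had -0.65 ± 0.42, Cabp5, a calcium-binding protein of bipolar cells, -0.66 ± 0.55, and Bhlhe23, a basic helix-loop-helix factor of rod bipolar development, -0.44 ± 0.45. Without pigmented cells the values were 0.52 ± 0.51 for Isl1, -0.60 ± 0.35 for Otx2, -0.04 ± 0.54 for Cabp5 and 0.13 ± 0.43 for Bhlhe23, again not called.

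Among all genes, the 12 of largest fold change over all members were Slc4a5, Sorl1, Fbln5, Tyr, Svil, St3gal6, Ttr, Igfbp2, Myoc, Lrrtm4, Aebp1 and Sparcl1, and only Sorl1, Lrrtm4 and Myoc of these were still called without pigmented cells. Tyr is tyrosinase, the key enzyme of melanin synthesis, and Slc4a5 and Ttr (transthyretin) are epithelial transport and carrier genes. Ttr stood at 7616 and 829 CPM in all members but at 41.9 and 86.7 once pigmented cells were removed, against 9.76 and 165 in cone bipolar cells. Its log2 fold change turned from 6.23 ± 1.31 to -0.41 ± 0.42. Cck, the neuropeptide cholecystokinin, was also lower once pigmented cells were removed. It stood at 281 and 237 in all members and 5.58 and 20.7 without pigmented cells, against 244 and 226 in cone bipolar cells, and its log2 fold change was 0.32 ± 0.63 and -3.69 ± 0.51.

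Sorl1 (GRCm38 chr9:41964720-42124297), a sorting receptor of the endosomal pathway, was present in members of both libraries at 70.3 and 73.4 CPM and was not seen in cone bipolar cells, where 0 UMIs were counted over both libraries. Against a floor of 3 UMIs over the cone bipolar class it was at least 11.3-fold higher over all members and at least 13.6-fold higher without pigmented cells (edgeR, adjusted p = 0.00863 over all members, 9.19e-10 to 0.021 over the 13 alternatives). The same bound over all members was 10.6-fold for Slc4a5, 7.93-fold for Fbln5, 7.51-fold for Tyr, 5.31-fold for Svil and 4.51-fold for St3gal6, of which Slc4a5 and Svil were not called without pigmented cells and Fbln5, Tyr and St3gal6 were then too low to be tested. Lrrtm4 (GRCm38 chr6:80018877-80810143), a synaptic organiser of the leucine-rich repeat family, was at 98.7 and 74.8 CPM in members and 0 and 2.76 in cone bipolar cells, a single UMI there. The ratio of pooled levels was 36.6 with a counting interval of 6.53 to 1452, and the gene was called under all 13 alternatives. GABAergic amacrine cells held Lrrtm4 at 39.3 and 30.8 CPM.

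Myoc, the secreted protein myocilin of the trabecular meshwork, was at 612 and 114 CPM in members and 9.76 and 5.51 in cone bipolar cells. Without pigmented cells, a Myoc UMI was found in only 1.43% and 2.73% of members thinned to 2000 UMIs, so few barcodes carried it.

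The same rule applied without pigmented cells, a choice made after the values were seen, named 12 genes higher in rod bipolar cells, 10 of them also called over all members. Beside Sorl1, Lrrtm4, Myoc, Sebox and Tpbg, they included Il1rap, the accessory protein of the interleukin-1 receptor, Adrb1, the beta-1 adrenergic receptor, Kcne2, an auxiliary potassium channel subunit, Ccdc136, Bend4 and Adcy1, an adenylyl cyclase. Il1rap was at 151 and 99.6 CPM against 9.76 and 2.76, a log2 fold change of 4.69 ± 0.68. Adrb1 was at 128 and 86.7 against 0 and 5.51, and Ccdc136 at 441 and 382 against 9.76 and 52.4. In each of these 12 genes the rod bipolar level was higher in both libraries, which the rule for naming genes required.

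**Figure D3:**
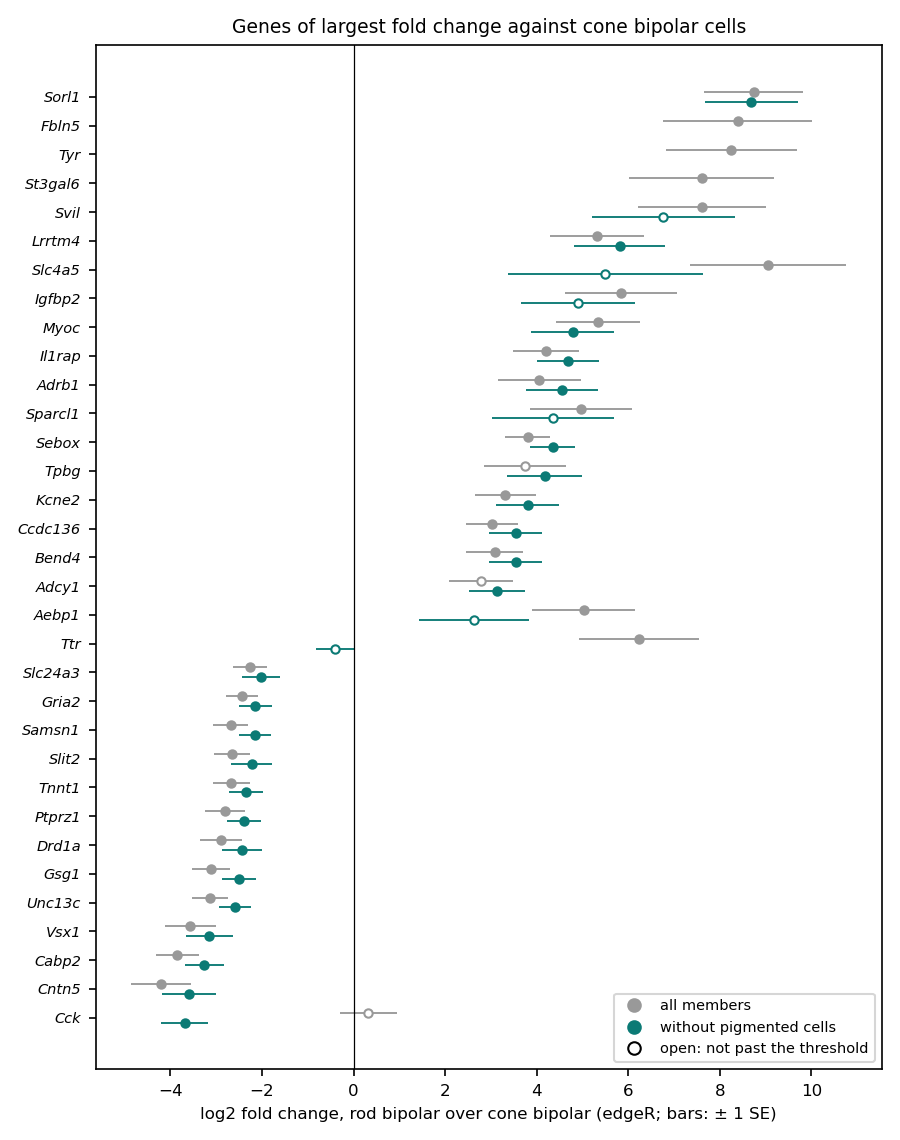
Log2 fold change of rod bipolar over cone bipolar cells (points, with bars of 1 SE) for genes of the largest fold changes, over all members (grey) and without pigmented cells (green), open points not past the threshold. Ttr and Cck change side or position when pigmented cells are left out, whereas the genes lower in rod bipolar cells keep theirs, Cck excepted. Genes with no UMI in cone bipolar cells (Sorl1, Fbln5, Tyr, St3gal6, Svil, Slc4a5) have fitted values that are no bound.

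The genes lower in rod than in cone bipolar cells depended less on the pigmented cells. Of the 50 called lower over all members, 23 (46%) were still called without these cells, against 16 of the 86 called higher (18.6%). All 12 genes named as lower by fold change over all members were still called without pigmented cells. They were Cntn5, Cabp2, Vsx1, Unc13c, Gsg1, Drd1a, Ptprz1, Samsn1, Tnnt1, Slit2, Gria2 and Slc24a3. Vsx1 (GRCm38 chr2:150680702-150689360), a homeobox factor of cone bipolar cells, was at 26.9 and 23.7 CPM in members and 390.3 and 265 in cone bipolar cells. Its log2 fold change was -3.57 ± 0.56 (edgeR, adjusted p = 0.0168) and -3.15 ± 0.51 without pigmented cells. Vsx1 did not keep its call under every alternative of the fit. Both summed values of members lay below both summed values of cone bipolar cells.

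Proteins of the release machinery were among them. Cabp2, a calcium-binding protein that modulates calcium channels, was at 22.4 and 23.4 CPM in members and 595 and 237 in cone bipolar cells, a log2 fold change of -3.85 ± 0.47 (edgeR, adjusted p = 0.00863). Unc13c, a vesicle-priming protein, was at 23.9 and 48.5 against 468 and 281, a log2 fold change of -3.13 ± 0.39 (edgeR, adjusted p = 0.00863). They were the 2 genes called, both lower, of 43 tested genes for ribbons and transmitter release, with the same 2 called without pigmented cells. Cplx3, the complexin of ribbon synapses, was at 1748 and 1351 without pigmented cells against 1776 and 1623, a log2 fold change of -0.01 ± 0.35. Slc17a7, the vesicular glutamate transporter VGLUT1, was at 335 and 405 against 419.6 and 628, a log2 fold change of -0.41 ± 0.42.

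Of 19 tested markers of cone bipolar types, 5 fell over all members (Vsx1, Tacr3, Pcdh17, Lhx3 and Lhx4) and 4 without pigmented cells (Vsx1, Tacr3, Cck and Lhx3), and none rose. Tacr3, the neurokinin-3 receptor, was at 2.99 and 3.22 CPM in members and 68.3 and 99.2 in cone bipolar cells. The homeobox gene Irx6 was at 0 and 3.22 against 48.8 and 77.2, and Lhx3 at 0 and 6.72 against 68.3 and 96.4. Of 27 tested transcription factors of the bipolar lineage, Sebox rose and Vsx1, Lhx3, Lhx4 and Irx6 fell over all members. Of 25 tested without pigmented cells, Sebox rose and Vsx1, Lhx3 and Irx6 fell, and Lhx4 was not called. Grik1, the kainate receptor subunit of OFF cone bipolar cells, was at 70.3 and 40.6 against 322 and 179 and did not pass the test (log2 fold change -2.05 ± 0.46; edgeR, adjusted p = 0.0526).

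Receptor and channel genes were called against cone bipolar cells at a rate near the 1.47% of all tested genes. None of 16 tested GABA and glycine receptor genes and none of 22 tested potassium and HCN channel genes was called over all members, and 1 of 17 tested glutamate receptor genes was, Gria2. This AMPA receptor subunit was at 44.9 and 97.6 CPM in members and 371 and 441 in cone bipolar cells (log2 fold change -2.44 ± 0.36; edgeR, adjusted p = 0.0135, 3.92e-09 to 0.0505 over the alternatives). Gabrr1 and Gabrr2, subunits of the GABA-C receptor, stood at 156 and 143 and at 123 and 111 in members and at 215 and 196 and at 234 and 220.4 in cone bipolar cells. Of 43 tested genes of synaptic adhesion and wiring, Lrrtm4 rose and Tenm2, Cntn5, Cdh8, Pcdh17, Slitrk5 and Slitrk6 fell over all members, and without pigmented cells Lrrtm4 rose and Cntn5 and Cdh8 fell. Cntn5, a contactin, was at 1.50 and 19.9 against 429 and 149, with a log2 fold change of -4.21 ± 0.65 and -3.60 ± 0.58.

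Against rods, the cells that synapse on them, members were higher in genes of the cascade and of inhibitory receptors. Over all members 504 genes (5.44% of 9271) were higher and 386 (4.16%) lower, 9.6% in all, and without pigmented cells 602 (6.94% of 8675) were higher and 514 (5.93%) lower, 12.9% in all. Of the 9 tested cascade genes, Gnao1, Gng13, Rgs11 and Gpr179 rose and Rgs9bp, which anchors the regulator of rod transducin, fell. Gng13 differed by 5.42 ± 0.69 on the log2 scale (edgeR, adjusted p = 0.000936) and Gpr179 by 5.00 ± 0.31 (edgeR, adjusted p = 8.05e-06). Without pigmented cells, Gnb3 rose as well, Gng13 differed by 5.95 ± 0.74 and Gpr179 by 5.44 ± 0.33.

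Of 17 tested rod bipolar markers outside the rule, 15 rose over all members against rods and none fell, and 16 of 18 rose without pigmented cells. Of 16 tested GABA and glycine receptor genes, 6 rose and none fell, among them Gabrr1, Gabrr2 and the glycine receptor Glra1. Gabrr1 was at 156 and 143 CPM in members and 0 and 7.98 in rods (log2 fold change 4.64 ± 0.56; edgeR, adjusted p = 0.000875). The same 6 receptor genes rose without pigmented cells, Gabrr1 by 5.05 ± 0.53.

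At the synapse, the 2 ribbon complexins differed in opposite directions. Cplx3 was at 954 and 1081 CPM in members and 82.1 and 205 in rods, a log2 fold change of 2.88 ± 0.36 (edgeR, adjusted p = 0.000875). Cplx4 was at 23.9 and 296 in members and 1079 and 855 in rods, a log2 fold change of -3.34 ± 0.84 (edgeR, adjusted p = 0.029). Cacna1d and Cabp2 were the other 2 genes that rose among 43 tested release genes, and Rims2 and Cabp4 the other 2 that fell. Without pigmented cells 6 of 43 rose and 3 fell, with log2 fold changes of 3.42 ± 0.38 for Cplx3 and -3.03 ± 0.67 for Cplx4. Cabp4 is the calcium-binding protein of the photoreceptor calcium channel, and Cacna1d encodes another L-type channel subunit.

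Genes of ion channels and calcium signalling also differed from rods. Kcnma1, the BK potassium channel, was at 530.4 and 337 CPM in members and 4.99 and 15.6 in rods without pigmented cells. Its log2 fold change was 4.38 ± 0.47 over all members (edgeR, adjusted p = 0.000557) and 4.89 ± 0.42 without pigmented cells. Of 22 tested potassium and HCN channel genes, Kcnj9, Kcnk3 and Kcnma1 rose and 2 fell, among them Kcnj14, and without pigmented cells 5 of 23 rose and 3 fell. Of 23 tested genes for calcium buffering and pumps, 9 rose and none fell, among them Pcp4 and Camk2b, and without pigmented cells 9 of 22 rose and 2 fell. Grm5, a group I metabotropic glutamate receptor, was at 62.8 and 62.3 against 0 and 3.72, a log2 fold change of 4.38 ± 0.67, and of 4.74 ± 0.63 without pigmented cells.

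The largest differences over all members named Slc24a4, Gng13, Gpr179, Cabp5, Ttr and Trnp1 as higher, and among those lower were Igkc, S100a8, S100a9, Cd52 and Guca1b. Slc24a4, a sodium-calcium-potassium exchanger, was at 55.3 and 46.8 CPM in members and 0 and 1.06 in rods, and Trnp1, a nuclear protein of neurons, was at 1237 and 1352 against 4.97 and 78.2. Igkc, an immunoglobulin chain, and S100a8, S100a9 and Cd52 are known from leukocytes. S100a8 was at 579 and 92.1 CPM in the rod class, and the part of such transcripts in the other differences from rods was not tested. Ttr, higher over all members, was lower without pigmented cells (log2 fold change 4.98 ± 1.21 and -1.67 ± 0.37).

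The third comparison was with GABAergic amacrine cells, which are inner retinal neurons. Over all members 853 (9.2%) were higher and 684 (7.38%) lower, 16.6% in all, and without pigmented cells 620 (7.15%) and 586 (6.76%), 13.9% in all. All 17 tested rod bipolar markers outside the rule rose, and all 18 tested without pigmented cells. Gabrr2 was at 123 and 111 CPM in members and at 0 in the amacrine class of both libraries, at least 33.2-fold higher against a floor of 3 UMIs over that class, and at least 43.7-fold without pigmented cells. Slco5a1, an organic anion transporter, was at 62.8 and 51.5 and again 0 there, at least 15.7-fold higher and at least 20.6-fold without pigmented cells.

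Ionotropic glutamate receptors ran the other way. Of 17 tested glutamate receptor genes, 13 were lower in members than in amacrine cells and Grik1 was higher. Gria3, an AMPA receptor subunit, was at 7.48 and 17.5 CPM in members and 163 and 125 in amacrine cells, a log2 fold change of -3.30 ± 0.57 (edgeR, adjusted p = 0.00274). The NMDA receptor subunits Grin1, Grin2a and Grin2b fell as well. Without pigmented cells 12 of 16 tested were lower, Gria3 by -2.99 ± 0.52, and Grik1 and Grm5 were higher.

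Inhibitory receptors split by subunit. Of 16 tested GABA and glycine receptor genes, 4 were higher in members, among them Gabrr1, Gabrr2 and Glra1, and 8 were lower, among them Gabra2, Gabra3, the GABA-B receptor genes Gabbr1 and Gabbr2 and the glycine receptor genes Glra2 and Glra3, and without pigmented cells 5 were higher and 8 lower. Of 43 tested release genes, 6 were higher, Stx3, Sv2b, Slc17a7, Cacna1f, Cacna2d4 and Cabp2, and 12 lower, against 9 and 9 without pigmented cells. Stx3 is the syntaxin of ribbon synapses, and Cacna1f and Cacna2d4 encode subunits of a ribbon synapse calcium channel. Slc17a7 was at 189.9 and 373 CPM in members and 18.1 and 43.4 in amacrine cells (log2 fold change 3.24 ± 0.57; edgeR, adjusted p = 0.00261). Cplx2, the complexin of conventional synapses, was at 13.5 and 26.0 against 435 and 373 (log2 fold change -4.30 ± 0.48; edgeR, adjusted p = 0.000398). Without pigmented cells these changes were 3.64 ± 0.51 for Slc17a7 and -4.05 ± 0.47 for Cplx2.

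Tac1 and Cartpt, both neuropeptide precursors, were among the genes of largest decrease in members. Tac1, the precursor of substance P, was at 1.50 and 11.7 CPM in members and 538 and 260.5 in amacrine cells, and Cartpt was at 37.4 and 83.6 against 2248 and 2930.4. The log2 fold change was -5.43 ± 0.67 for Tac1 and -5.54 ± 0.85 for Cartpt, and without pigmented cells -6.18 ± 0.60 and -5.52 ± 0.90. Of 18 tested immediate early genes, 9 were higher in members than in amacrine cells (7 without pigmented cells), and none was called against cone bipolar cells. Fos was at 404 and 1102 in members, 133 and 609.6 in amacrine cells and 166 and 821 in cone bipolar cells, with the higher value in library 2 in each of these classes.

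Transcripts of other cell types were present in the members and differed between the libraries. Rod transcripts outside the gates took a median of 0.0997% of a member's UMIs in library 1 (lowest 0%, highest 2.14%) and 0.640% in library 2 (lowest 0.0512%, highest 9.57%). Of library 2 members, 122 of 360 held more than 1%, and of library 1 members 2 of 111. All 14 rod cell markers had a UMI in members of both libraries, with a summed level of 906 CPM in library 1 and 19377 in library 2 (1541 and 17669 without pigmented cells), against 4089 and 11619 in cone bipolar cells. Their part in the comparisons was not tested beyond leaving out the cells rich in them.

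**Figure D4:**
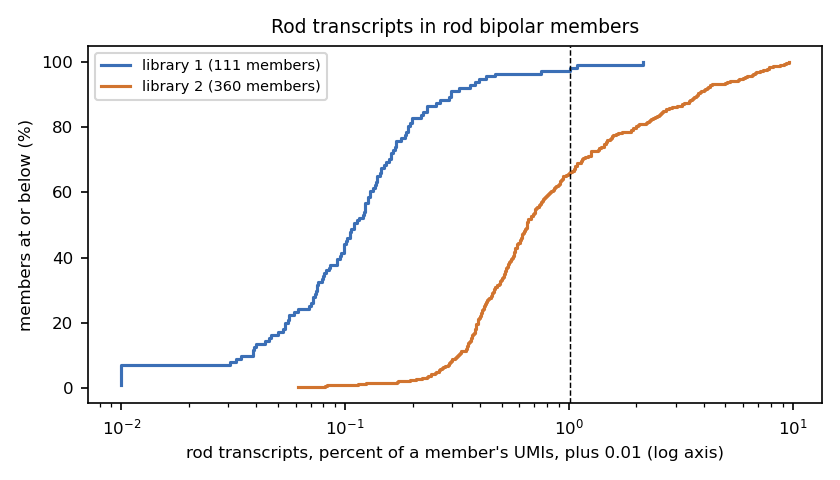
Cumulative share of members (vertical axis, percent) at or below a given percentage of UMIs from rod transcripts outside the gates (horizontal log axis, with 0.01 added), 1 curve per library. The curve of library 2 lies to the right, with 122 of 360 members past the dashed line at 1% and 2 of 111 in library 1.

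Markers of other cells and of the tissue named in the label were read in members. The 6 ciliary epithelium markers, all with a UMI in both libraries, summed to 244 and 162 CPM over all members and to 274 and 118 without pigmented cells, where Best2 and Cldn19 were at 0 in library 1. These sums were above the 117 and 33.1 CPM of cone bipolar cells in the same library. Without pigmented cells, members of both libraries held 274 UMIs of Aldh1a1, against 57 of Col18a1, 35 of Pdyn, 26 of Ltbp2 and 4 of Best2. Fibroblast markers summed to 5488 and 1008 CPM over all members and to 1879 and 388 without pigmented cells, with all 5 seen in both libraries, against 68.3 and 220.4 in cone bipolar cells. Müller glia markers, 9 of 9 seen, summed to 7903 and 5983 and to 4654 and 4557, against 2029.7 and 2452 in cone bipolar cells, and Apoe and Vim were called against that class over all members but not without pigmented cells. Amacrine markers, 8 of 8 seen, summed to 399 and 385 in members and to 341 and 386 without pigmented cells, against 58.5 and 44.1 in cone bipolar cells, whose gate required 0 UMIs of 6 of them. Macrophage markers summed to 98.7 and 102 with Cx3cr1 at 0 in library 1, and the 4 globin genes to 154 and 2085, and without pigmented cells these were 184 and 116, and 270.8 and 2760.4. In cone bipolar cells the macrophage markers summed to 39.0 and 19.3 and the globin genes to 127 and 88.2. Cells rich in red cell transcripts were left out in an alternative, together with those rich in rod transcripts. Beyond that and the removal of pigmented cells, whether these transcripts shape the differences from cone bipolar cells was not tested.

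Most of the genes whose counts varied most among members are known mainly from other cell types. Among 2883 genes with a mean of at least 0.1 UMI in both libraries after thinning to 2000 UMIs, the median ratio of variance to mean was 1.04 in library 1 and 1.05 in library 2, close to the 1 of pure counting. The 8 genes of highest ratio were Ptgds, Ttr, Dct, Apoe, Dcn, Hba-a1, Pmel and Tyrp1, of which Dcn is a gate gene. Ptgds, prostaglandin D synthase, reached ratios of 142 and 100.4, and Pmel, a melanosome protein, 16.6 and 25.5. Without pigmented cells the 8 were Apoe, Hba-a1, Lyz2, Igfbp5, Dcn, Hba-a2, Malat1 and Myoc, of which Malat1 had a UMI in 100% of members of both libraries. Apoe, the apolipoprotein of glia and macrophages, was then seen in 34.3% and 64.5% of members at ratios of 41.3 and 21.6, and Lyz2, a lysozyme of myeloid cells, in 2.86% and 3.75%. The first gene of the rod bipolar profile in that order was the gate gene Pcp2 at ratios of 6.53 and 6.08.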

How the data were processed

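Per the labels' protocols, dissected tissue was digested and made into droplet libraries. The authors deposited raw UMI counts per gene and barcode for each library, made with Cell Ranger 3.1.0 per the file headers, and the submitters' processing notes also name CASAVA 1.8, Seurat, mm10 and GRCm38. The annotation release is not given in the sources used here. Library totals were 22510387 and 30683405 UMIs over 4764 and 6220 barcodes.

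Barcodes were filtered and gated as described in the report. Members, gates and the 18 gene lists were chosen with earlier results of these data known. UMIs were summed per class and library and tested with edgeR 4.0.16 (TMM factors, filterByExpr, quasi-likelihood F test, class and library terms, 6 residual degrees of freedom), without the 28 gate genes. The SE is the size of the log2 fold change divided by the square root of F. Named genes were, per direction, the 12 (cone bipolar) or 6 (rod, amacrine) called genes with the greatest change, provided that the libraries did not differ in sign and that the class with the higher level held 20 or more UMIs in each of them. Predicted, RIKEN, mitochondrial and ribosomal genes were passed over, as were clone-named genes, an addition made with the values known. Also named were up to 6 called genes per list and direction, the cell type markers and the full lists of the mGluR6 cascade and of G protein beta and gamma subunits. Levels are CPM over the summed class. The library number is a block since a library is 1 pool from which all classes were taken.

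Alternatives were DESeq2 1.42.0, RLE factors, no filter on low counts, stricter and looser gates, a 15% mitochondrial limit, no replicate block, fibroblasts and macrophages added, cells over 2 times the median UMIs left out, thinning to 2000 UMIs and each library alone. Leaving out pigmented cells and cells rich in rod (over 1% of UMIs) or red cell transcripts (over 0.1%) was added after seeing the data. No doublet caller was run. Results for some genes are not reported here. On simulated counts for the cone bipolar comparison with 8736 genes, the fit recovered 69 of 100 genes changed 4-fold and 6 of 100 changed 2-fold, and called 1 of 8536 unchanged genes. Gene positions came from GENCODE for GRCm38, which holds 32655 of the 33456 identifiers and may differ from the annotation the authors used. R 4.3.3 and Python 3.11.15 were used.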

Additional observations from a re-analysis of the deposited data

How the results depend on the processing

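Against cone bipolar cells, the main counts of 86 higher and 50 lower became 606 and 166 with no filter on low counts, 395 and 206 with the looser gate, and 40 and 27 with no replicate block. The stricter gate gave 41 higher, thinning to 2000 UMIs 52 higher (glycinergic amacrine cells left out of the fit), and dropping cells over 2 times the median UMIs 112 lower. Without pigmented cells 23 were higher and 27 lower, and without these and cells rich in rod or red cell transcripts 19 and 20 (glycinergic amacrine cells left out of the fit). Against rods, the 504 higher and 386 lower became 987 and 613 with no filter, 950 and 860 without cells over 2 times the median UMIs, and 801 and 815 without cells rich in rod or red cell transcripts. With no replicate block 171 were lower against rods, and without pigmented and rod-rich or red-rich cells 788. Against GABAergic amacrine cells, the 853 higher and 684 lower became 377 and 345 after thinning, 1420 were higher with no filter, and 558 were higher without pigmented and rod-rich or red-rich cells.

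Members were 5.05% of retained cells in both libraries together, 3.77% with the stricter gate, 7.78% with the looser gate, 4.42% at the 15% mitochondrial limit, and 2.87% to 6.59% leaving out each library. In library 1 the share was 2.17% with the stricter gate, 5.36% with the looser gate and 2.16% after thinning. In library 2 these were 4.90%, 9.50% and 7.67%, and 5.75% at the 15% limit.

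Of the named genes called, 13 of 37 against cone bipolar cells, 43 of 77 against rods and 82 of 127 against GABAergic amacrine cells kept their call under every tested alternative they entered. Each library alone allows no test and is not in these counts. Against cone bipolar cells, 36 named genes, called or not, lay more than 1 SE from the main log2 fold change without library 1, and 64 did not. Without library 2 these were 49 and 51. Against rods they were 85 and 31, then 91 and 25, and against GABAergic amacrine cells 79 and 80, then 71 and 88. Further named genes turned direction with no call in either the main result or the alternative, and these are not listed. Against cone bipolar cells they were 21 without cells over 2 times the median UMIs and 6 without pigmented cells, Gng13, Isl1 and Bhlhe23 among the latter. Against rods they were 10 and 8, and against GABAergic amacrine cells 5 and 1. For the following genes the log2 fold change turned direction with a call in the main result or in the alternative. They include Gng5 and Gnb2 against rods and Dkk3 against GABAergic amacrine cells, which were not called in the main result. Without pigmented cells, Ttr was -0.41 against cone bipolar cells and -1.67 against rods, and Cck -0.70 against rods. With rod-rich and red-rich cells also removed, Ttr was -0.80 and -1.71, Cck -0.59 against rods and Slc2a1 -0.0405 against GABAergic amacrine cells. Without cells over 2 times the median UMIs, Cck was -0.62, Clu -0.0294, Col1a1 -1.17 and Gng5 -1.21 against rods, and Clu -0.30 and Dkk3 -1.39 against GABAergic amacrine cells. After thinning, Gnb2 was -1.20 against rods. The cause of these changes was not tested.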
